A study of Mus musculus with 2 samples.

Results

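The genes with which macrophages take up, carry, store and release lipid were followed across the lung cells of mice bearing mammary carcinoma metastases. The 10 genes were chosen by name from the 27999 listed, and each was listed in both libraries: Apoe, Lpl, Trem2, Cd36, Gpnmb, Abcg1, Fabp1, Fabp4, Fabp5 and Plin2. Each library held dissociated, perfused lung cells of 1 female FVB/NJ mouse, aged 10 weeks when Met-1 mammary carcinoma cells, an established mouse line, were injected into a tail vein. The low burden lung was taken at week 1 and the high burden lung at week 3, and both mice received tumour cells, so neither lung is an uninjected control. With 1 mouse for each burden there are no replicates, and week, burden, mouse and library cannot be told apart. Intervals below are exact 95% intervals that cover counting error only, and no p-value is given.

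Counts are unique molecular identifiers (UMIs), each standing for 1 captured transcript. The low burden library held 14041471 UMIs in 2668 barcodes and the high burden library 52723173 in 3121. Within the study's limits on genes and mitochondrial share, 2473 and 3033 cells were kept, with medians of 4073 and 13998 UMIs, and 11 cell barcodes occurred in both libraries. Cells were assigned to classes by gates on marker genes, none of which is a member of the 10. A cell past more than 1 gate was called mixed (8.33% of low and 3.00% of high burden cells), and 6.31% and 15.2% passed no gate. Because the gate thresholds were set after the score distributions had been seen, a class is a range of marker score, and a difference from the study's own clusters may come from these rebuilt names.

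The alveolar macrophage-like gate held 454 cells of the low burden lung and 5 of the high burden lung. The C1q macrophage-like gate, named for the complement C1q genes of interstitial and recruited macrophages, held 52 and 793, and the monocyte-like gate 92 and 9. At low burden the gene with the highest fold in the alveolar gate was Ear2, an eosinophil-type ribonuclease of alveolar macrophages, found in 100% of cells, and C1qa was found in 3.30%. Fabp1 and Abcg1 were among its 10 leading genes, and Apoe among those of the low burden C1q gate. In the C1q gate C1qa was found in 100% and 99.9% of cells, while Siglecf, an alveolar macrophage receptor, was found in 0 of the 52 cells and in 0.504% of the 793. Ear2 and Siglecf are markers of the alveolar gate and C1qa of the C1q gate, so these shares describe the gating and are no finding. Cells close to a threshold numbered 5 of the 454, 1 of the 52, 19 of the 793 and 1 of the 92. Of the shared barcodes, 2 lay in the low burden alveolar gate, 3 in the high burden C1q gate and 0 in the low burden C1q gate.

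Alveolar macrophages clear surfactant, a lipid-rich film, from the airspace, and depend on handling large amounts of fatty acid and cholesterol. Apoe encodes a lipoprotein that carries cholesterol out of cells, and Abcg1 a transporter that exports it. Lpl releases fatty acids from triglyceride, Cd36 is a scavenger receptor that takes up fatty acids and oxidised lipoproteins, and Trem2 is a receptor for lipids and apolipoproteins. The fatty acid binding proteins encoded by Fabp1, Fabp4 and Fabp5 carry fatty acids through the cytoplasm, Plin2 coats lipid droplets, and Gpnmb is a glycoprotein of lysosomes found in lipid-laden macrophages. Trem2, Gpnmb, Fabp5, Lpl and Plin2 are often named together as genes of lipid-associated macrophages.

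On GRCm38, the build behind the mm10 counts, Apoe lies at chr7:19696109-19699188 and Plin2 at chr4:86648386-86670060, both on the minus strand. Fabp1 lies at chr6:71199827-71205023, Gpnmb at chr6:49036546-49070929, Trem2 at chr17:48346401-48354147 and Abcg1 at chr17:31057675-31117988, all on the plus strand. Lpl lies at chr8:68880491-68907448 on the plus strand and Cd36 at chr5:17781690-17888801 on the minus strand. Fabp4 at chr3:10204088-10208576 and Fabp5 at chr3:10012548-10016607 lie on the same chromosome, on opposite strands. Promoter windows of 300 bases, 250 before and 50 after the RefSeq start (GRCm38.p6), matched 6 of the 10 members, and Lpl, Abcg1, Fabp4 and Fabp5 had none. The 4 windows shown belong to a pair of genes with their highest low burden level in the alveolar gate, Fabp1 and Plin2, and a pair with theirs in the C1q gate, Apoe and Trem2. They are chr6:71199629-71199928 (plus strand), chr4:86670010-86670309 (minus), chr7:19699139-19699438 (minus) and chr17:48346151-48346450 (plus). Each reads 5′ to 3′ on the gene's strand, and capitals mark the motifs searched for on both strands.
Fabp1: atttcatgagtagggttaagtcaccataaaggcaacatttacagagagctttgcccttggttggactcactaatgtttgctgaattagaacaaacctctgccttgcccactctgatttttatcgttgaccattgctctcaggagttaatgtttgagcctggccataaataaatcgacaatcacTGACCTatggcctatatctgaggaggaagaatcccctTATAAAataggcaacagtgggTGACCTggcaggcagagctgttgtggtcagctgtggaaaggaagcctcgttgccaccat
Plin2: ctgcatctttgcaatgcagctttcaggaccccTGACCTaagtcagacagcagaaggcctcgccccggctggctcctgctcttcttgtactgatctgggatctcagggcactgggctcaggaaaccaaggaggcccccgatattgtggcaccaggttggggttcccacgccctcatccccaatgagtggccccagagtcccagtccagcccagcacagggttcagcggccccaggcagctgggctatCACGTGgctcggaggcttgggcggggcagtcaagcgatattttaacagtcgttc
Apoe: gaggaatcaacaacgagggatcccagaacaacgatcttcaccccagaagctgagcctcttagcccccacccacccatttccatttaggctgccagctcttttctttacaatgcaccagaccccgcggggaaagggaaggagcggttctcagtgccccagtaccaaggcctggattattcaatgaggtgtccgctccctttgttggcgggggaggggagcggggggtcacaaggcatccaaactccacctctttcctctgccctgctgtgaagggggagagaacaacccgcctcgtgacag
Trem2: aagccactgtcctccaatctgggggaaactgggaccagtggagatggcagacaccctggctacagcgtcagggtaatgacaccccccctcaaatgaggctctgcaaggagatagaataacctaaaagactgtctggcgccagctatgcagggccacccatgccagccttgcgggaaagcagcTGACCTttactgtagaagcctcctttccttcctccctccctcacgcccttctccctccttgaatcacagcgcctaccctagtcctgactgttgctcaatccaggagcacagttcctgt

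The capitals TGACCT are the nuclear receptor core motif AGGTCA read on the other strand, TATAAA is the TATA box and CACGTG an E-box. This core motif occurred in 4 of the 6 windows, those of Cd36, Fabp1, Plin2 and Trem2, against 16.3% of 32851 mouse promoter windows of the same length. The Cd36 window lies 52905 bases from the gene start in the annotation above, and the other 5 within 52 bases of theirs. In Fabp1 it occurred at 67 and at 9 bases before the start, in Trem2 at 68 and in Plin2 at 218. The TATA box was found in Fabp1 alone of the 6, at 30 bases before the start, and in 13.6% of all windows, and the E-box in Plin2 alone, at 4 bases before the start, and in 7.15% of all. The Apoe and Gpnmb windows held none of the 3. The core motif was thus present in windows of genes from both macrophage gates.

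In the low burden lung the alveolar gate was rich in genes of lipid droplet storage, fatty acid carriage and cholesterol export, and the C1q gate in Apoe and Trem2. Levels are given as counts per 1000000 UMIs of the gate (CPM), a scale without gene length on which a gene is compared between cells and not with another gene. Fabp1, the liver-type fatty acid binding protein, stood at 1575 CPM (1515 to 1637) in the alveolar gate, 31.8 CPM (12.8 to 65.6) in the C1q gate and 18.6 CPM (6.81 to 40.4) in monocytes, beside 16.3 CPM in T and B cells. Abcg1 stood at 1542 CPM (1483 to 1603), 86.4 CPM (52.0 to 135) and 34.0 CPM (17.0 to 60.9), beside 23.8 CPM in T and B cells. For both genes the alveolar level was far above every other gate, and the C1q and next gates had overlapping intervals.

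Lpl was at 1327 CPM (1272 to 1384) in alveolar cells, 141 CPM (95.8 to 200.1) in C1q cells and 15.5 CPM in monocytes, the last at 0.882 times the T and B cell level. Plin2 was at 1065 CPM (1016 to 1116), 355 CPM (280.3 to 443) and 179.5 CPM (136 to 232). Gpnmb was at 203.5 CPM (182 to 226.5) in alveolar cells, while the 52 C1q cells held 0 UMIs, which allows up to 13.6 CPM, and the monocytes 1 UMI. These 3 genes thus followed the order alveolar, C1q and monocyte for Lpl and Plin2, with Gpnmb at the limit of detection outside the alveolar gate except for 25.8 CPM in fibroblasts.

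Apoe ran the other way. It stood at 23810 CPM (23160 to 24460) in the C1q gate, 4138 CPM in fibroblasts, 2965 CPM (2780 to 3159) in monocytes and 526 CPM (491 to 562) in alveolar cells, beside 244 CPM in T and B cells. Apoe UMIs were found in 60.6% of alveolar cells but also in 56.0% of T and B cells at full depth. Thinned to 2000 UMIs per cell, the shares expected over all draws were 46.2% (SD over draws 1.35) and 35.2% (2.34). How much of the alveolar Apoe was background was not tested. Per cell, Apoe had a median of 235 UMIs per 10000 in C1q cells, with an interquartile range of 101 to 366.5 and a highest value of 1011, against a median of 2.59 in alveolar cells with a highest value of 57.6. Trem2 was at 432 CPM (349 to 528) in C1q cells, 74.3 CPM (47.6 to 110.5) in monocytes and 58.8 CPM (47.6 to 71.7) in alveolar cells, and the last 2 intervals overlapped. Trem2 was found in 69.2% of C1q, 21.7% of monocyte and 17.8% of alveolar cells, against 2.09% of T and B cells. With every cell thinned to 2000 UMIs, which left out no cell, the shares expected over all draws were 51.5% (SD over draws 4.49), 13.5% (2.26), 10.4% (0.917) and 0.907% (0.434).

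Cd36, Fabp4 and Fabp5 were highest outside the macrophages. Cd36 reached 1375 CPM in endothelial cells and 512 CPM in AT2 cells, the surfactant-making alveolar epithelium, ahead of alveolar macrophages (380 CPM), monocytes (306 CPM) and C1q cells (223 CPM), whose neighbouring intervals overlapped. Fabp5 reached 1623 CPM in AT2 cells and 566 CPM in alveolar macrophages, while C1q cells (63.6 CPM) and monocytes (58.8 CPM) were within the interval of T and B cells (36.9 to 69.7 CPM). Fabp4 stood at 236 CPM in endothelial cells, carried by 11.5% of them, and at 184 CPM in alveolar macrophages, carried by 31.5%. Alveolar and smooth muscle or pericyte cells (164 CPM) had overlapping Fabp4 intervals.

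**Figure D1:**
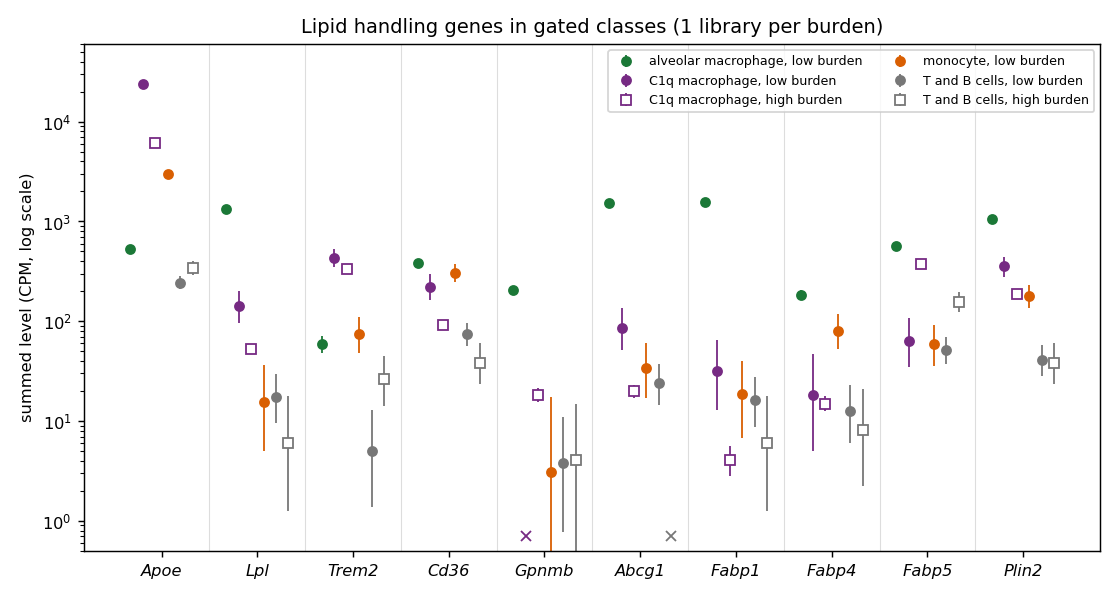
Summed level of each gene in CPM on a log axis, with exact 95% Poisson intervals, in the alveolar, C1q and monocyte gates and in T and B cells. Filled circles are the low burden library, open squares the high burden library and crosses groups with 0 UMIs. Fabp1, Abcg1, Lpl and Gpnmb stood highest in alveolar cells, Apoe and Trem2 in C1q cells.

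In the direct comparison of alveolar with C1q cells of the low burden lung, 7 members were at least 2-fold higher and 2 at least 2-fold lower in alveolar cells, and all 10 passed the filter on low counts (at least 50 UMIs over both arms and a UMI in at least 10% of the cells of 1 arm). Of the 7 higher, all but Plin2 passed only through the alveolar cells, since the C1q cells alone held fewer than 50 UMIs of each. Their ratios are thus a description and the counts are no support. Of the 4403 genes compared, 21.1% were at least 2-fold higher and 7.29% at least 2-fold lower. The log2 ratio was 5.63 (4.58 to 6.94) for Fabp1, 4.16 (3.51 to 4.89) for Abcg1, 3.34 (1.97 to 5.22) for Fabp4, 3.24 (2.73 to 3.796) for Lpl, 3.15 (2.40 to 4.03) for Fabp5 and 1.59 (1.26 to 1.93) for Plin2. Gpnmb was at least 14.9-fold higher, taking the C1q gate at 3 UMIs. Apoe was 45.3-fold lower (log2 ratio -5.50, -5.61 to -5.40), Trem2 7.35-fold lower (-2.88, -3.30 to -2.45), and Cd36 stayed within the 2-fold limit at 0.77 (0.35 to 1.22).

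Against monocytes, alveolar cells had 7 members at least 2-fold higher, where 22.2% of 4401 genes were, and 1 lower, Apoe at -2.50 (-2.63 to -2.36), where 9.79% were. The ratios were 6.42 (5.20 to 8.05) for Lpl and 6.41 (5.28 to 7.85) for Fabp1, whose monocyte levels rested on 5 and 6 UMIs. The smallest of the 7 was 1.19 (0.61 to 1.83) for Fabp4. All of the 7 but Plin2 passed the filter only through the alveolar cells, since the monocytes alone held too few UMIs of each. Their ratios are thus a description and the count of 7 is no support. C1q cells against monocytes had 4 members past the filter. Of these, Apoe (3.00, 2.91 to 3.11) and Trem2 (2.54, 1.88 to 3.25) were at least 2-fold higher and none lower, where 9.54% and 18.4% of 1436 genes were. Trem2 passed the filter only through the C1q cells, so its ratio is a description and adds no support to the count. Plin2 was at 0.98 (0.47 to 1.498) and Cd36 at -0.46 (-0.98 to 0.05). Fabp4 did not pass the filter, with 26 UMIs in monocytes and 4 in C1q cells.

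**Figure D2:**
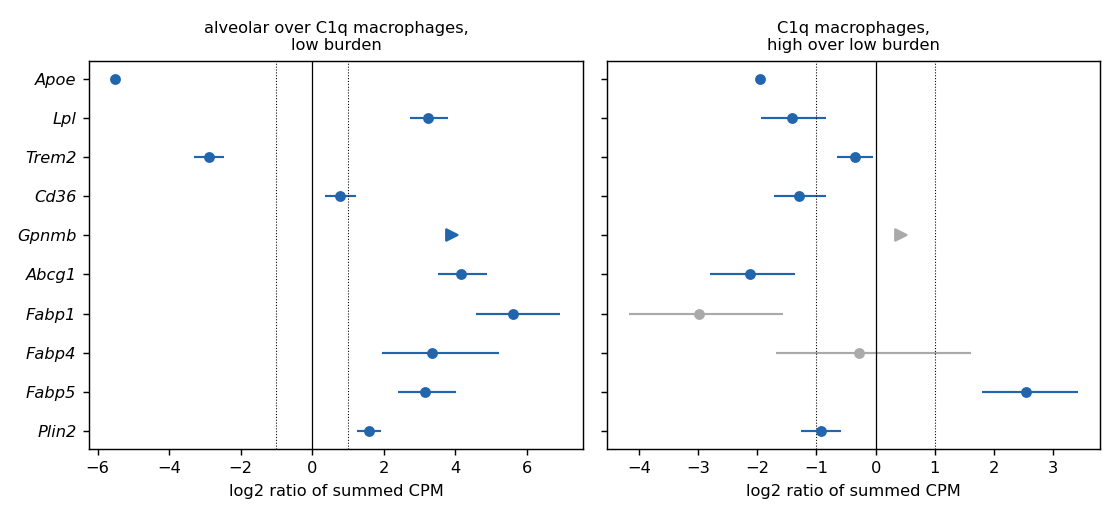
Log2 ratio of summed CPM for each gene with 95% intervals, alveolar over C1q cells of the low burden lung (left) and high over low burden within the C1q gate (right). Dotted lines mark 2-fold, grey points did not pass the filter on low counts and triangles are lower bounds. On the left 7 genes lie to the right of the 2-fold line and Apoe and Trem2 to the left, and on the right Fabp5 alone lies past the upper line.

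Other lipid genes, from lists chosen with earlier results known, are described by counts, and many of their C1q levels rested on 1 to 5 UMIs. Of the 9 genes of lipid droplet turnover that passed the filter, 7 were at least 2-fold higher in alveolar than in C1q cells and 0 lower, with a median log2 ratio of 1.92 against 0.25 over all genes compared. Cidec, which fuses lipid droplets, had the highest ratio (214 against 3 UMIs, 3.25, 1.68 to 5.54). Of 10 fatty acid oxidation genes 6 were higher and 0 lower, with a median of 1.27. The C1q cells held at most 15 UMIs of any of these droplet genes and at most 27 of any oxidation gene. All of them thus passed the filter only through the alveolar cells, and the counts are no support. The same holds for the genes called higher among the transcription factors, uptake receptors, efflux genes and lipase partners below. Of 9 lipid-sensing transcription factors 4 were higher, Bhlhe40 with the highest ratio (228 against 2 UMIs, 3.92, 2.05 to 6.98). Pparg, a receptor needed for alveolar macrophage identity and named after its values were seen, had 86 against 1 UMIs (3.52, 1.002 to 8.84). Among the 13 genes of Trem2 signalling and lipid-associated macrophages 5 were higher and 3 lower, with the integrin Itgax highest (404 against 3 UMIs, 4.17, 2.61 to 6.45) and Lgmn, a lysosomal protease, lowest at -2.59 (-2.85 to -2.32). Of the 12 lysosomal lipid breakdown genes 4 were higher, with Npc1 highest (129 against 3 UMIs, 2.52, 0.94 to 4.81), and 2 lower, with Plbd1 lowest at -3.36 (-4.13 to -2.61). Of 7 uptake receptors 4 were higher and 2 lower, with Stab1 lowest at -5.05 (-6.09 to -4.13), and of 8 efflux genes 3 were higher and 1 lower. Of 4 partners of lipoprotein lipase 2 were higher and 0 lower, and both of the 2 other fatty acid transport genes were higher. By these values the uptake, Trem2, lysosomal and efflux lists were divided between the macrophage gates, which is a description only.

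Most of the UMIs of some members lay in 1 gate. The alveolar gate was 18.4% of low burden cells and held 88.4% of that library's Fabp1 UMIs, 82.8% of Abcg1, 76.4% of Lpl, 74.7% of Gpnmb and 57.2% of Plin2. It held 34.1% of Trem2 and 3.85% of Apoe. The C1q gate was 2.10% of the cells and held 33.4% of Trem2 and 23.2% of Apoe, while fibroblasts held 34.8% of Apoe. In the high burden lung the C1q gate was 26.1% of cells and held 78.0% of Trem2, 73.4% of Apoe, 52.8% of Gpnmb and 46.9% of Abcg1. Metastatic cells, gated on 6 tumour genes chosen with earlier results known, were 38.5% of cells and 55.7% of all UMIs, and held 62.8% of Fabp5, 50.3% of Fabp1 (3.10 CPM) and 42.7% of Plin2, the last 2 below their share of all UMIs. The C1q gate held 17.3% of all UMIs of that library, and the low burden alveolar and C1q gates 12.4% and 1.66% of theirs.

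The whole-lung levels moved with these classes. Over all kept cells Fabp1 went from 221 to 3.44 CPM, Abcg1 from 231 to 7.32 CPM and Lpl from 216 to 30.8 CPM between low and high burden, while Trem2 went from 21.4 to 74.96 CPM and Fabp5 from 215 to 517 CPM. Apoe was at 1699 and 1446 CPM over all cells, but at 1699 and 2909 CPM with the metastatic gate left out. How much of this came from the share of each class and how much from levels within it was not tested.

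**Figure D3:**
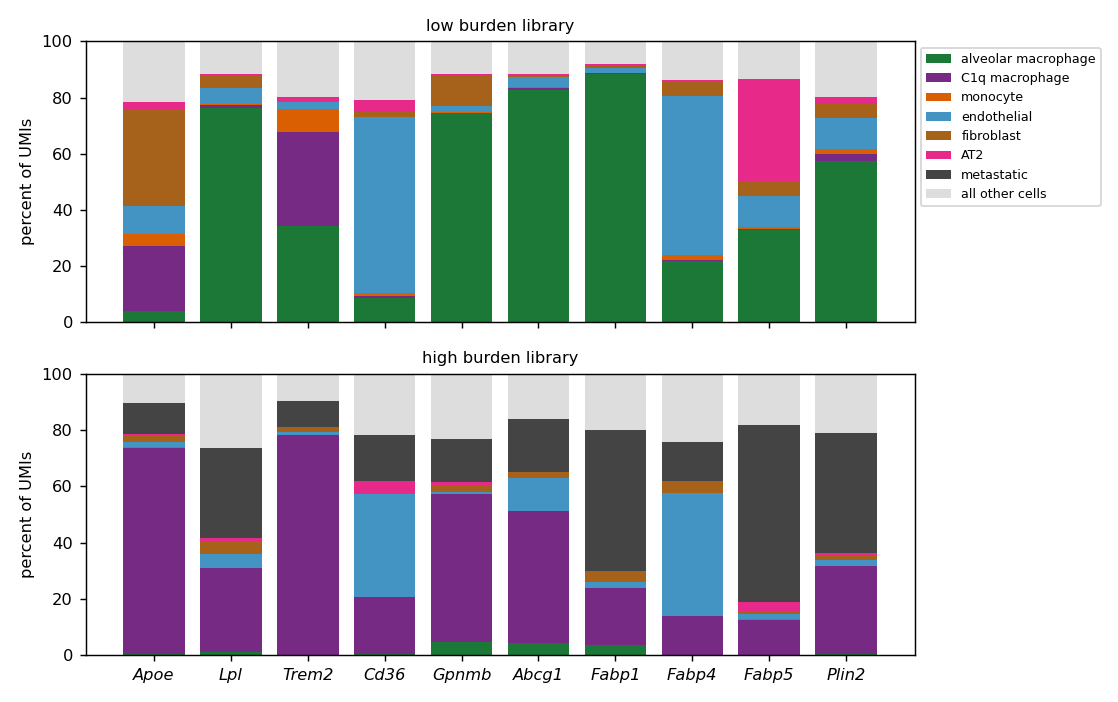
Percent of each gene's UMIs found in each gate, in the low (top) and high (bottom) burden libraries, stacked to 100% with all other cells in grey. The alveolar gate held 88.4% of Fabp1 UMIs at low burden, and the C1q gate 78.0% of Trem2 UMIs at high burden.

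The 5 alveolar-gate cells of the high burden lung are too few for a level. They held 4, 0, 0, 2 and 0 UMIs of Fabp1, 4, 3, 0, 9 and 0 of Abcg1 and 0, 9, 0, 5 and 0 of Gpnmb. Apoe was at 38, 1, 1, 3 and 232 UMIs, and the cell with 232 also had 44 UMIs of C1q markers, against 2 to 4 in the others. Thus 1 cell held 84.4% of their Apoe. The 9 high burden monocytes held 199 Apoe UMIs (3473 CPM, 3008 to 3991), 10 of Trem2, 10 of Fabp5, 7 of Plin2 and 3 of Cd36, and 0 of the other 5 members.

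Within the C1q gate, present in both lungs, Fabp5 was higher and Apoe, Abcg1, Lpl and Cd36 were lower at high burden. Of the 7 members that passed the filter, 1 was at least 2-fold higher and 4 at least 2-fold lower, where 16.1% and 11.8% of 7268 genes were. The low burden arm held 219950 UMIs and the high burden arm 8920660, so many of those genes, Fabp5 among them, passed on the high burden count. Apoe went from 23810 to 6120 CPM (6069 to 6171), a log2 ratio of -1.96 (-2.00 to -1.92). The interquartile range of low burden cells, 101 to 366.5 UMIs per 10000, lay above that of high burden cells, 17.9 to 79.3, although the highest cells were near each other at 1011 and 879. Abcg1 went from 86.4 to 19.8 CPM (17.0 to 23.0), -2.12 (-2.81 to -1.36), Lpl from 141 to 53.0 CPM (48.4 to 58.0), -1.41 (-1.94 to -0.84), and Cd36 from 223 to 90.9 CPM (84.8 to 97.4), -1.29 (-1.71 to -0.85). Apoe still stood at 17.9 times the T and B cell level of the high burden library, Lpl at 8.70 times and Cd36 at 2.35 times. For Lpl that level was low, at 8.73 CPM in T and 0 CPM in B cells. High burden Lpl was also at 59.9 CPM in fibroblasts, 49.4 CPM in dendritic, 45.9 CPM in endothelial and 45.0 CPM in AT2 cells, with neighbouring intervals overlapping.

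Trem2 changed least, from 432 to 337.5 CPM (326 to 350), a ratio of -0.36 (-0.65 to -0.05). Its share of cells was 69.2% and 84.1% at full depth. Thinned to 2000 UMIs, the shares expected over all draws were 51.5% (SD over draws 4.49) and 44.8% (1.46). These SDs cover the draw alone and not the number of cells, so no order is read from them. Plin2 went from 355 to 186 CPM, -0.93 (-1.26 to -0.58), short of 2-fold. Gpnmb had 0 UMIs in 52 cells and 163 in 793, in 33 cells, a share of 4.16%, while 0 of 52 cells allows a share of up to 6.85% by the exact binomial interval. Fabp1 (7 and 36 UMIs) and Fabp4 (4 and 133) did not pass the filter.

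Fabp5, which carries fatty acids in epidermis and activated macrophages, went from 63.6 CPM (34.8 to 107) to 373 CPM (360.4 to 386) in the C1q gate, a log2 ratio of 2.55 (1.80 to 3.42). The low burden value rested on 14 UMIs in 11 cells. At 2000 UMIs per cell the share of C1q cells with Fabp5 expected over all draws was 9.25% (SD over draws 3.02) in the low and 25.3% (1.19) in the high burden lung, beside 7.59% (1.21) and 20.7% (4.31) of T and B cells, whose median depths were 3228 UMIs for T and 3547.5 for B at low and 7553 and 6407 at high burden. The C1q medians were 3906.5 and 10499. Fabp5 in T cells was also higher at high burden (58.0 and 180 CPM), as in B cells (2 and 15 UMIs). Activated T cells can express Fabp5, and the part of other cells' RNA in the Fabp5 level of C1q cells was not tested.

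Fabp5 was also higher in most other gates. It was at 78.6 and 326 CPM in dendritic cells (2.05, 1.52 to 2.62), 75.3 and 294 CPM in fibroblasts (1.96, 1.68 to 2.25), 93.2 and 272 CPM in endothelial cells (1.54, 1.34 to 1.75) and 19.0 and 75.2 CPM in club cells. In AT2 cells, where it was highest, it went from 1623 to 1902 CPM (0.23, 0.10 to 0.36). Metastatic cells stood at 582 CPM (573 to 591), above all gates but AT2. The endothelial ratio did not hold: it was 0.53 with cells thinned to 1 depth, 0.48 without cells over 2 times the median UMIs and 0.72 as a mean over cells.

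In the dendritic gate 4 members passed the filter, of which Fabp5 and Apoe (188 and 379 CPM, 1.01, 0.62 to 1.41) were at least 2-fold higher, where 5.02% of 1953 genes were. Plin2 was lower (201 and 96.0 CPM, -1.06, -1.67 to -0.49), where 4.71% were. Fabp5 passed the filter only through the high burden cells, and Plin2 only through the low burden cells. Their ratios are thus a description and these counts of members are no support. Fabp4 counts in this gate were 3 and 54 UMIs, but 1 cell held 88.9% of the 54, and it did not pass the filter. The Apoe value fell short of 2-fold under 6 alternatives, between 0.67 with doubled thresholds and 0.94 without the top cell, and 17 of 64 and 15 of 51 cells lay near the gate threshold. Apoe in T and B cells stood at 244 and 341 CPM (0.48, 0.18 to 0.79), near the dendritic levels.

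Endothelial cells had 7 members past the filter, with Fabp5 higher and none lower, where 2.69% and 1.68% of 8193 genes were. Cd36, which imports fatty acids across the endothelium, went from 1375 to 797 CPM (-0.79, -0.87 to -0.70), and remained the highest of all gates in both lungs. Fabp4 was at 236 CPM in both (0.00, -0.17 to 0.17), but 1 cell held 42.4% of the high burden UMIs, and the ratio was -3.01 with doubled thresholds and -1.14 with thinned cells. AT2 cells had 4 members past the filter and none past 2-fold, where 4.38% and 2.56% of 2147 genes were.

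In fibroblasts 7 members passed. Apoe went from 4138 to 1393 CPM (-1.57, -1.65 to -1.49) and Cd36 from 68.5 to 18.6 CPM (-1.88, -2.61 to -1.22), where 13.9% of 6509 genes were at least 2-fold lower. Fabp5 and Trem2 were higher, where 8.66% were. Trem2 passed the filter only through the high burden cells, and Cd36 only through the low burden cells. The count of members higher was 1 with thinned cells, where Trem2 was at 5.54, and 1 without the top cell, which in the low burden arm held its only UMI. Trem2 had 1 UMI in 396 low burden cells and 70 UMIs in 33 of 85 high burden cells, a ratio of 6.81 (4.28 to 12.1). Markers of the C1q gate were at 56.4 and 365 CPM in these fibroblasts, and at 391 and 337 CPM in high burden fibroblasts with and without a Trem2 UMI. Per 100 C1q marker UMIs, fibroblasts held 16.2 Trem2 UMIs (12.6 to 20.5), C1q cells 2.51 (2.42 to 2.60), endothelial cells 4.51 (3.02 to 6.48), metastatic cells 3.71 (3.34 to 4.12) and T and B cells 6.28 (3.34 to 10.7). At high burden the fibroblast interval overlapped none of the other 4, and the endothelial, metastatic and T and B cell intervals also lay above that of C1q cells. Because C1q cells were gated on these markers, the comparison with them is set in part by the gating. At low burden fibroblasts held 0.93 such UMIs (0.02 to 5.21), C1q cells 2.48 (2.01 to 3.04), endothelial cells 4.9 (1.97 to 10.1) and T and B cells 5.63 (1.54 to 14.4). Each interval covers counting error in 1 library only. The part of other cells' RNA in this result was not tested.

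**Figure D4:**
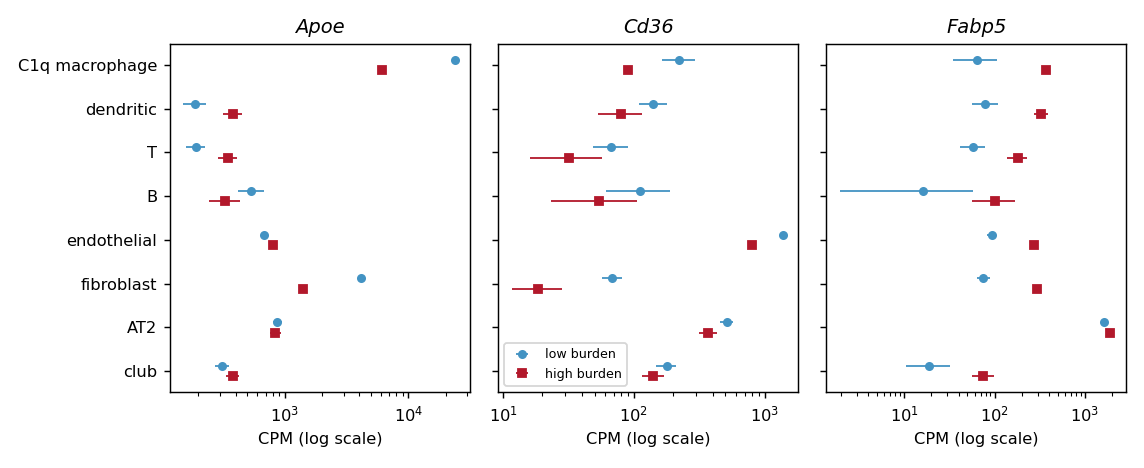
Level of Apoe, Cd36 and Fabp5 in CPM on a log axis with 95% intervals, in each gate with at least 20 cells in both libraries. Circles are low burden and squares high burden. Apoe was lower at high burden in C1q cells and fibroblasts and higher in dendritic cells, and Fabp5 was higher in every gate shown.

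Among the other lipid genes of the C1q gate, some were at least 2-fold higher and some lower, and the medians of the 9 lists ran from -0.49 (efflux) to 0.33 (other fatty acid transport), against 0.07 over all genes compared. Of 12 uptake receptors 4 were at least 2-fold higher, with Cd5l, a secreted scavenger, highest of those with a UMI in both arms (1 and 847 UMIs, 4.38, 1.90 to 9.69), and 3 lower, with Colec12 lowest at -1.40 (-2.31 to -0.31). Marco, a scavenger receptor named after its values were seen, had 0 and 1641 UMIs. Of 13 Trem2 signalling and lipid-associated genes 2 were higher, with Spp1, the secreted phosphoprotein osteopontin, at 132 and 1702 CPM (3.69, 3.17 to 4.27), and 2 lower, with the tetraspanin Cd9 at 559 and 226 CPM (-1.31, -1.57 to -1.03). Of 12 lysosomal lipid breakdown genes 0 were higher and 4 lower, with a median of -0.30 and Plbd1 lowest at -1.53 (-2.01 to -1.004). Of 11 efflux genes 2 were higher, with the cholesterol hydroxylase Ch25h highest (3 and 869 UMIs, 2.84, 1.28 to 5.12), and 2 lower, with Cyp27a1, another sterol hydroxylase, lowest at -1.97 (-3.01 to -0.71). Among 10 lipid droplet genes 0 were higher and 2 lower, with Mgll, the monoglyceride lipase, lowest at -2.48 (-3.62 to -1.09). Among 13 fatty acid oxidation genes 3 were higher and 1, Acadm, lower at -1.34 (-1.95 to -0.66). Among 12 transcription factors 1 was higher and 1, Cebpa, lower at -1.41 (-1.91 to -0.85), among 4 partners of lipoprotein lipase 0 were higher and 1 lower, and among 3 other fatty acid transport genes 0 were higher and 1 lower. The last is Acsl1 (6 and 120 UMIs, -1.02, -2.18 to 0.45), which is also 1 of the 2 lower in the droplet list and whose interval includes no difference. Spp1 was also the highest of the Trem2 list in the other gates compared, at 157 and 732 CPM in dendritic cells, 43.0 and 870 CPM in endothelial cells, 24.2 and 825 CPM in fibroblasts and 27.8 and 1479 CPM in AT2 cells. T and B cells stood at 33.8 and 1386 CPM, with a Spp1 UMI in 100% of those at high burden, and metastatic cells at 6623 CPM. The part of other cells' RNA in the Spp1 level of C1q cells was not tested.

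A few high burden C1q cells carried several members together. With each of the 793 cells thinned to 5000 UMIs, 25 cells (3.15%) had a Gpnmb UMI and 768 had none. The 25 cells held 517 Fabp5 UMIs and the other 768 cells 998, and the highest of the 25 held 17.2% of the 517. Fabp5 stood at 4136 CPM with and 260 CPM without a Gpnmb UMI (log2 ratio 3.99, 3.84 to 4.15), and was found in 22 of 25 and 313 of 768 cells. Fabp4 stood at 104 and 10.4 CPM (3.32, 2.29 to 4.25), Abcg1 at 112 and 20.8 CPM (2.43, 1.49 to 3.26), Plin2 at 576 and 172 CPM (1.74, 1.37 to 2.10) and Apoe at 15750 and 6381 CPM (1.30, 1.24 to 1.37). These 5 were at least 2-fold higher, where 6.97% of 5134 genes were higher and 13% lower, with a median log2 ratio of -0.07 over all of them. Fabp4 and Abcg1 passed the filter only through the 25 cells, in which they had to be high to pass, and are given as values. In the cells with Gpnmb 46.2% of the Fabp4 UMIs came from 1 cell.

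Trem2 differed less, at 512 and 344 CPM (0.57, 0.19 to 0.93), and the intervals of Lpl (88.0 and 56.5 CPM) and Cd36 (136 and 85.4 CPM) included no difference. Lysosomal genes accompanied the members: Ctsd, a lysosomal protease, stood at 4048 and 763 CPM (2.41), Ctsl at 504 and 117 CPM (2.10), Psap, which activates sphingolipid breakdown, at 5840 and 2057 CPM (1.51), and Lipa, the lysosomal acid lipase, at 216 and 70.0 CPM (1.62). Lgals3, of the Trem2 list, stood at 2528 and 754 CPM (1.75). Of 13 Trem2 signalling and lipid-associated genes that passed the filter 7 were at least 2-fold higher and 0 lower, and of 11 lysosomal lipid breakdown genes 5 were higher and 1 lower. Of the other lists, 2 of 10 efflux genes, 3 of 10 uptake receptors, 2 of 5 droplet genes, 3 of 10 transcription factors, 1 of 3 lipase partners, 1 of 10 oxidation genes and 0 of 2 fatty acid transport genes were higher. In these lists 1 efflux and 1 transport gene were lower. The chemokines Ccl12 (232 and 1345 CPM) and Ccl2 (192 and 796 CPM) and the monocyte receptor Ccr2 (1 and 688 UMIs) were lower. Genes named in this paragraph other than the members were chosen after their values were seen.

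Alveolar markers were low in both groups of cells. Summed over that list, the cells with Gpnmb held 496 CPM against 337 CPM in the other cells, and they held 10110 and 13920 CPM of C1q markers. Metastatic markers were at 56.0 and 47.9 CPM and median depth before thinning at 9972 and 10520 UMIs. Arg1, an enzyme of alternatively activated macrophages, had 1 UMI in the 25 cells and 342 in the 768 (-3.48, -8.79 to -0.99). In 3 repeats chosen after the data were seen (2000 UMIs per cell, without the cell with the most Gpnmb, and without cells over 2 times the median UMIs) the Fabp5 ratio was 3.86 to 4.02, while that of Trem2 was 1.24 in the first and 0.95 in the last.

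**Figure D5:**
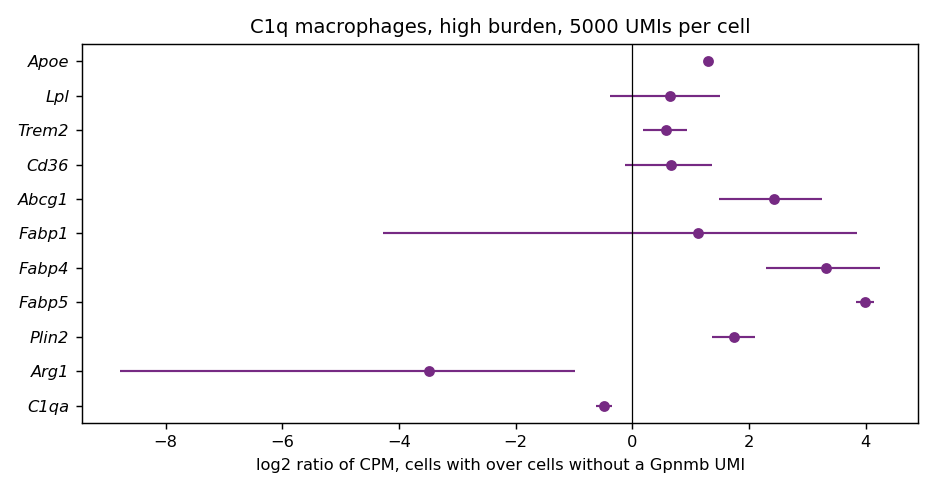
Log2 ratio of CPM with 95% intervals in high burden C1q cells, 25 with over 768 without a Gpnmb UMI, each cell thinned to 5000 UMIs. Fabp5 lies at 3.99, Fabp4 at 3.32 and Abcg1 at 2.43, while Arg1, with 1 UMI in the 25 cells, lies to the left at -3.48 with a wide interval.

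Cells with and without Arg1 differed in other members. In the 99 cells with an Arg1 UMI, Lpl stood at 16.2 CPM against 63.4 CPM in the 694 without (-1.97, -3.20 to -0.97), Trem2 at 220 against 368 CPM (-0.74, -1.04 to -0.46) and Gpnmb at 1 UMI against 98. Fabp4 was higher, at 38.4 against 9.80 CPM on 19 and 34 UMIs (1.97, 1.08 to 2.82), and Fabp5 was at 339 and 388 CPM (-0.19, -0.43 to 0.04). The 588 cells with a Trem2 UMI had Fabp5 at 452 against 182 CPM (1.31, 1.09 to 1.54) and Apoe at 7451 against 4454 CPM (0.74, 0.70 to 0.79), but Fabp4 at 9.52 against 24.4 CPM on 28 and 25 UMIs (-1.36, -2.19 to -0.52). The 80 cells with Abcg1 had Lpl at 175 against 44.3 CPM (1.98, 1.55 to 2.40) and Gpnmb at 118 against 14.6 CPM (3.01, 2.41 to 3.61). Fabp4 was thus higher both in cells with Gpnmb and in cells with Arg1, and 1 of the 25 cells with Gpnmb had an Arg1 UMI.

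In low burden alveolar cells, thinned to 2000 UMIs, the cells were split by each member in the same way. The 114 cells with a Gpnmb UMI had Fabp4 at 259 against 132 CPM (0.97, 0.47 to 1.46), Cd36 at 491 against 328 CPM (0.58, 0.24 to 0.92) and Plin2 at 1285 against 1006 CPM (0.35, 0.15 to 0.55) in the 340 without. Fabp1 went the other way, at 1101 against 1725 CPM (-0.65, -0.85 to -0.45), and Gpnmb was at 144 CPM in the 322 cells with Fabp1 and 292 CPM in the 132 without (-1.01, -1.46 to -0.56). Fabp5 was at 0.35 (0.06 to 0.64) in the split by Gpnmb. In the 418 cells with Abcg1, Fabp1 stood at 1648 against 639 CPM in the 36 without (1.37, 0.94 to 1.82) and Apoe at 516 against 264 CPM (0.97, 0.31 to 1.71). At this depth Abcg1 was found in 92.1% of alveolar cells, Lpl in 84.1%, Fabp1 in 70.9% and Gpnmb in 25.1%.

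The genes most like each member were taken over 23 class sums (14 low and 9 high burden, each of at least 20 cells), which share libraries, depth and free RNA, so the correlations are a description. Fabp1 was most like Atp6v0d2 (Pearson r = 0.95), Krt79 (0.95) and Ear10 (0.94), and Abcg1 like Ear10 (0.91), all highest in alveolar cells. Trem2 was most like Fcgr1 (0.89) and Msr1 (0.89), both highest in the C1q gate. Lpl was most like Mertk (0.84), Gpnmb like Ang5 (0.84), Plin2 like Tlr2 (0.84), Cd36 like Dram2 (0.86), Fabp4 like Plcb1 (0.79) and Fabp5 like Nek6 (0.84). Among members, Lpl and Plin2 reached 0.79 and Apoe and Trem2 0.69, whereas Apoe and Fabp1 were at 0.06. Atp6v0d2 and Krt79 are gate markers of the alveolar class, in which they were highest.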

How the data were processed

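Single-cell libraries (10x) of 2 mouse lungs, 1 per burden, were used. Per the labels and the study's methods, the authors made the deposited counts with Cell Ranger 2.0.2 on mm10 with a PYMT sequence added, as raw UMI counts per gene and cell. The study names a step that aggregates libraries, and whether it preceded these counts is not given in the sources used here. The low burden file holds more barcodes than the study states, and the high burden file as many as it states.

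Cells with 1000 to 7000 genes and at most 10% mitochondrial UMIs were kept, as in the study. Each cell was scored against 18 classes with 118 markers as marker UMIs per 10000 UMIs and assigned where it passed 1 gate, with thresholds set after the score distributions were seen. Doublets were not called, and leaving out cells over 2 times the median UMIs of their class was an alternative. UMIs were summed per gate and library and scaled to CPM. A class needed at least 20 cells, and a gene passed with at least 50 UMIs over both arms and a UMI in at least 10% of cells of 1 arm. Exact Poisson intervals were used for levels, conditional binomial intervals for ratios and Clopper-Pearson intervals for shares, all at 95%. They cover counting error only, and with 1 mouse per group no test between burdens was possible. A level of 0 was set to 3 counts for a bound. Thinned shares given with an SD over draws are exact hypergeometric expectations, and other thinned values come from 1 draw. The median-of-ratios scaling, thinning to 2000 UMIs per cell, halved or doubled gates and the other alternatives are given in the closing section.

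All 10 members were described in every class with at least 20 cells. For likeness, the 3 genes with the highest Pearson r of log2(CPM + 10) were taken among genes with at least 500 UMIs, and for each of 9 lists (123 genes, of which 2 were not found) the highest and lowest ratio. Some genes that this rule names are not reported here. The members, lists and metastatic markers were chosen with earlier results of these data known. Ratios and intervals were tested on simulated data. Python 3.11.15, NumPy 2.4.6, SciPy 1.17.1, pandas 2.3.3 and Matplotlib 3.10.9 were used.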

Additional observations from a re-analysis of the deposited data

Results flagged for a closer look

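Apoe differed in direction between gates under the same comparison of high over low burden. Its log2 ratio was -1.96 in the C1q gate and -1.57 in fibroblasts, and 1.01 in the dendritic gate, where 17 of 64 low and 15 of 51 high burden cells lay close to the gate threshold. The difference between these gates was not tested, since each burden is 1 mouse. T and B cells, which should lack Apoe, stood at 244 CPM in the first lung and 341 CPM in the second.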

How the results depend on the processing

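No paired analysis was possible because each burden is 1 library with no replicate. The counts of members at least 2-fold higher or lower in the 3 comparisons that turn on macrophages (alveolar over C1q, alveolar over monocyte, and C1q high over low burden) stayed within 1.5 times under each alternative run. Of 512 log2 ratios recomputed, 429 moved by less than their counting interval, 83 by more, and no recomputed ratio past 2-fold changed sign. A level at or under that of T and B cells left no ratio once that level was subtracted. Among ratios past 2-fold this left out Apoe in dendritic cells, Trem2 and Cd36 in fibroblasts, and Lpl in alveolar cells over monocytes. Their sign was thus not checked under that alternative. In the dendritic gate the members higher numbered 1 with halved or doubled thresholds, median-of-ratios scaling, per-cell means or without the top cell, and 0 with thinned cells. The members lower there numbered 0 with halved or doubled thresholds or thinned cells, 2 without the top cell and 3 with no filter. In endothelial cells the members higher numbered 0 with doubled thresholds, per-cell means, thinned cells or without cells over 2 times the median UMIs, and 2 with the T and B level subtracted or no filter. The members lower there numbered 1 with halved thresholds, per-cell means, the T and B level subtracted or without cells over 2 times the median, and 2 with no filter. In fibroblasts 1 was higher with thinned cells or without the top cell, 1 lower with the T and B level subtracted and 5 lower with no filter. With no filter, AT2 cells had 3 higher and 3 lower, and C1q cells over monocytes 4 higher and 1 lower. The cause was not tested. Of 84 counts of cells, 5 moved past 1.5 times, in the endothelial and monocyte gates (thresholds halved) and the dendritic gate (doubled). For the split by Gpnmb, 21 of 25 ratios moved by less than their interval, and 10 cells had a Gpnmb UMI at 2000 UMIs. Depth limits Gpnmb, Fabp1 and Fabp4 in the low burden C1q gate, with 0, 7 and 4 UMIs.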
